A study of Mus musculus with 6 samples.

Results

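The genes described here are those whose symbol starts with *Nduf*, which hold the nuclear-encoded subunits and several assembly factors of respiratory complex I. Symbols were taken from the RefSeq accession of each probe, and each gene was represented by its brightest probe. Of 53 *Nduf* symbols considered in the mouse annotation, 45 had a named probe on the array, among 19010 named genes tested in all. The 45 genes comprised 35 subunits, 8 assembly factors with the prefix *Ndufaf*, and *Ndufa4* and *Ndufa4l2*, which carry the name but are not counted as complex I subunits. The other genes, *Ndufb1*, *Ndufb4b*, *Ndufb4c* and the pseudogenes *Ndufa11b*, *Ndufs6b*, *Ndufa12-ps*, *Ndufab1-ps* and *Ndufs5-ps*, were not analysed here. All 45 genes were detected on all 6 arrays, so that none was lost to the filter on dim probes.

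RNA was from interscapular brown adipose tissue (iBAT) of male mice aged 16 weeks on the C57BL/6 background, 3 samples labelled control and 3 labelled *ob/ob*. The *ob/ob* mouse lacks functional leptin because of a mutation in *Lep* and becomes obese. The labels say no more of the control genotype, and they do not say whether a sample was 1 mouse or a pool, so the spread between samples may be partly technical. Each sample was hybridised to 1 single-dye (Cy3) Agilent whole-genome array.

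Complex I (NADH:ubiquinone oxidoreductase) is the entry point of electrons from NADH into the mitochondrial respiratory chain. It is L-shaped: a matrix arm carries flavin and iron-sulfur clusters from the NADH site to the ubiquinone site, and a membrane arm pumps protons. The core subunits do the catalysis, and part of them, the membrane-embedded ones, are encoded by mitochondrial DNA. Supernumerary subunits surround this core, and assembly factors join the modules without remaining in the finished enzyme. In brown adipocytes the proton gradient is dissipated as heat by UCP1, so the tissue is rich in respiratory complexes. The probes for mitochondrially encoded subunits carry identifiers that could not be named here, and they were not analysed.

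Promoter windows are shown for members on which the account below turns: *Ndufb7* and *Ndufa5*, the subunits with the largest mean differences between groups, *Ndufs6*, another of the 5 largest, *Ndufb4*, whose window holds the most motif matches, and *Ndufaf5*, an assembly factor with the opposite order of arrays. Each runs 5′ to 3′ on the strand of the gene, from 250 bases before the annotated start to 30 bases after it, in RefSeq assembly GRCm38.p6. Capitals mark the letters of motifs of factors known to bind promoters of respiratory genes. Those searched for on both strands were GCGCA, any 1 base and GCGC for NRF1, CCGGAAG for ETS factors such as GABPA, AAGGTCA for the half-site of estrogen-related receptors (ERRs), and AAGATGGCG for YY1.
Ndufb7 (chr8:83566508-83566787, plus strand): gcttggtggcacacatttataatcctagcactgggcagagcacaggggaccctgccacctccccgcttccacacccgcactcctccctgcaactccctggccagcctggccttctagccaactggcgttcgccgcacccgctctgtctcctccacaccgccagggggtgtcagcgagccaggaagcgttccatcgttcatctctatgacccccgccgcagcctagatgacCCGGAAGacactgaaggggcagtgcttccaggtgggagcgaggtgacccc
Ndufa5 (chr6:24527497-24527776, minus strand): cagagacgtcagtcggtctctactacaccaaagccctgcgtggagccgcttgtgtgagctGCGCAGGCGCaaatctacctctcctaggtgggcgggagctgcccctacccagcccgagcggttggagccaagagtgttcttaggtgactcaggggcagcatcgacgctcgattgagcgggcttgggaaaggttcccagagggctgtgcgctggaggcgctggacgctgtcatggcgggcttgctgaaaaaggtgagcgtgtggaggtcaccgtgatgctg
Ndufb4 (chr16:37654339-37654618, minus strand): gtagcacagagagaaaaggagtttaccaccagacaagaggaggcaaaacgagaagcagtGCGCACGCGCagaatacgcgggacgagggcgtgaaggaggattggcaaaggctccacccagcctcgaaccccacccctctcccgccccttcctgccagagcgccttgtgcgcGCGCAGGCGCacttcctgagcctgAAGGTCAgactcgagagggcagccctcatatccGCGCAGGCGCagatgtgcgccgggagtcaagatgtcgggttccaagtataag
Ndufs6 (chr13:73328453-73328732, minus strand): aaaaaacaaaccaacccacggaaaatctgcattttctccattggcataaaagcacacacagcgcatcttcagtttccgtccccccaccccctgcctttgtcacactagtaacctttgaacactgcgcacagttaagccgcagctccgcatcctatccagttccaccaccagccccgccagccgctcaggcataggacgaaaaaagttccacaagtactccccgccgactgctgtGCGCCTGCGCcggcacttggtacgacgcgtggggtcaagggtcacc
Ndufaf5 (chr2:140170396-140170675, plus strand): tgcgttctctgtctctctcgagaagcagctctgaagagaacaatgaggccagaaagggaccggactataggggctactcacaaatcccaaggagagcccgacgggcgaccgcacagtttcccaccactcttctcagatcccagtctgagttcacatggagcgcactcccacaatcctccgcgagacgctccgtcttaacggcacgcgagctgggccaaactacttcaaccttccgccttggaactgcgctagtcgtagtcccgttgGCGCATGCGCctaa
In the stretches shown, *Ndufb7* held 1 ETS match, and *Ndufa5*, *Ndufs6* and *Ndufaf5* held 1 NRF1 match each. *Ndufb4* held 3 NRF1 matches and 1 ERR half-site. *Ndufs6* also had 1 YY1 match beyond the stretch shown. Whole windows, which reach 50 bases past the start, were found for 40 of the 45 genes, 42 windows in all, and 20 genes had a match of at least 1 motif. No match of one motif overlapped that of another. The NRF1 letters were in 8 of 34 subunit windows (23.5%), 2 of 7 assembly factor windows (28.6%), 8 of 32 windows of complex III, IV and V subunits (25%), 4.603% of all 32851 mouse windows and 6.38% of the 21263 windows of protein-coding genes. The YY1 letters were in 14.7% of subunit windows and in 1 of 7 assembly factor windows (14.3%), that of *Ndufaf8*. They were in 6.25% of windows of complexes III, IV and V, 1.40% of all windows and 1.83% of those of protein-coding genes. The ETS letters were in 11.8% of subunit windows, about the share in windows of protein-coding genes (11.6%; 8.86% of all windows), and in 28.6% of assembly factor windows and 31.2% of those of complexes III, IV and V. The ERR half-site was in 8.82% of subunit windows, no assembly factor window and 12.5% of windows of complexes III, IV and V. It was in 4.08% of windows of protein-coding genes and 4.72% of all windows. These matches describe the letters of the windows and say nothing about binding in this tissue.

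The arrays did not separate by label. Across all named genes, the signals of control 3 were closer to those of *ob/ob* 1 (Spearman correlation 0.91) and *ob/ob* 2 (0.94) than to those of control 1 (0.58) and control 2 (0.68). For *ob/ob* 3 the correlation was 0.85 with control 1, against 0.52 with *ob/ob* 1. Whether the arrays numbered 3 carry the right labels could not be checked from the files. The labels were kept as given, and an exchange of these samples would change the size or the sign of the differences below. The main results are therefore given with and without control 3 and *ob/ob* 3. Between 83.5% and 89.9% of spots were well above background. The median log2 signal of spike-in probes before normalization was 4.01 on *ob/ob* 3 against 6.19 to 7.10 on the others. The 75th percentile of the signal before normalization was 292, 235 and 94.5 on control arrays 1 to 3. It was 134, 165 and 140 on *ob/ob* arrays 1 to 3. The part of these array differences in the results below was not tested. *Lep*, which carries the mutation, had log2 signals of 5.74, 4.57 and 5.30 on control arrays 1 to 3 and 6.68, 5.83 and 9.33 on *ob/ob* arrays 1 to 3. All *ob/ob* arrays were thus above all control arrays, where 3.76% of all named genes showed this (unadjusted p = 0.064 in limma). The presence of this mRNA does not show the genotype, since the mutant mRNA is still made. Whether its level bears on the labels was not tested.

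The central comparison asked whether complex I transcripts differed between *ob/ob* and control iBAT. The group means of 39 of the 45 *Nduf* genes were lower in *ob/ob*, but no difference passed the test. The subunits lay below zero as a class, with a median log2 fold change (*ob/ob* minus control) of -0.95 and 33 of 35 lower, whereas the 8 assembly factors had a median of -0.08 and 4 of 8 lower. The median over all 19010 named genes was -0.09, with 10859 of them lower. In limma, 0 of 45 genes passed an adjusted p of 0.05 (Benjamini-Hochberg over all 35448 probes), against a background of 0% of named genes, and the lowest adjusted p of any probe was 0.154. At an unadjusted p under 0.05, 0 members were lower, where 1.68% of all named genes were, and 0 members were higher, where 2.04% were. The methods' t-test on the same values gave 1 member lower at that unadjusted threshold, *Ndufa11*, where 2.13% of all named genes were, and 0 after adjustment.

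**Figure D1:**
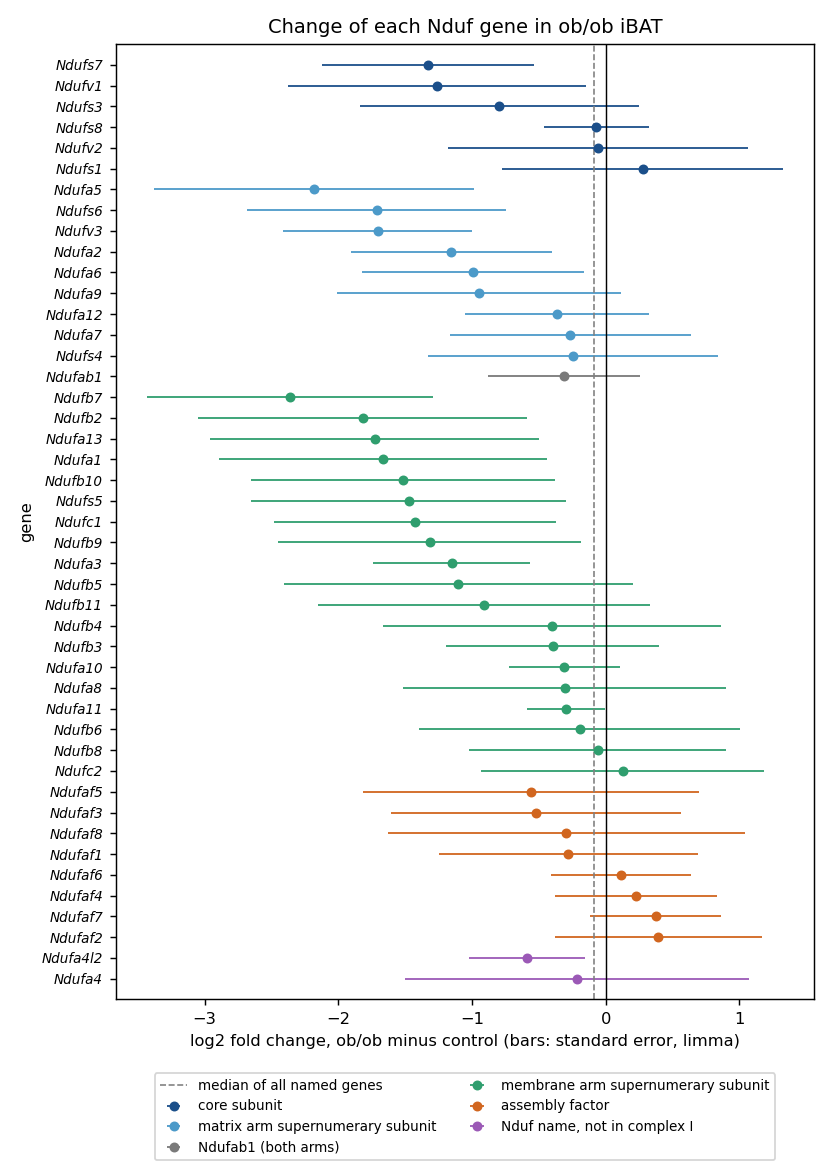
Log2 fold change of each of the 45 *Nduf* genes (x axis, *ob/ob* minus control, bars ± SE from limma, 3 arrays per group), ordered within each class by size, with the median of all named genes as a dashed line. Subunits (blue, gray and green) reach down to -2.36, and the assembly factors (orange) lie between -0.56 and 0.39.

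The groups overlapped in nearly every gene. All *ob/ob* arrays were below all control arrays for 1 member, *Ndufa11*, where 4.18% of all named genes showed this, and for 0 members they were above, where 3.76% did. With 3 arrays against 3, an exact permutation test cannot go below p = 0.10. The spread within groups was larger than most differences: the SD of a subunit was, at the median, 1.83 log2 units among control arrays and 1.14 among *ob/ob* arrays. Standard errors of the fold changes of subunits ranged from 0.29 to 1.31.

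A similar split of the arrays was seen in nearly all subunits. Relative to each gene's mean over the 6 arrays, the median subunit stood at 1.76 on control 1 and 1.09 on control 2, but at -1.62 on control 3. It stood at -0.93 on *ob/ob* 1, -1.22 on *ob/ob* 2 and 0.65 on *ob/ob* 3. Thus control 3 was the lowest array and *ob/ob* 3 the third highest. The number of subunits above their own mean was 35 of 35 on control 1 and control 2, 1 on control 3, 0 on *ob/ob* 1 and *ob/ob* 2, and 29 on *ob/ob* 3.

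**Figure D2:**
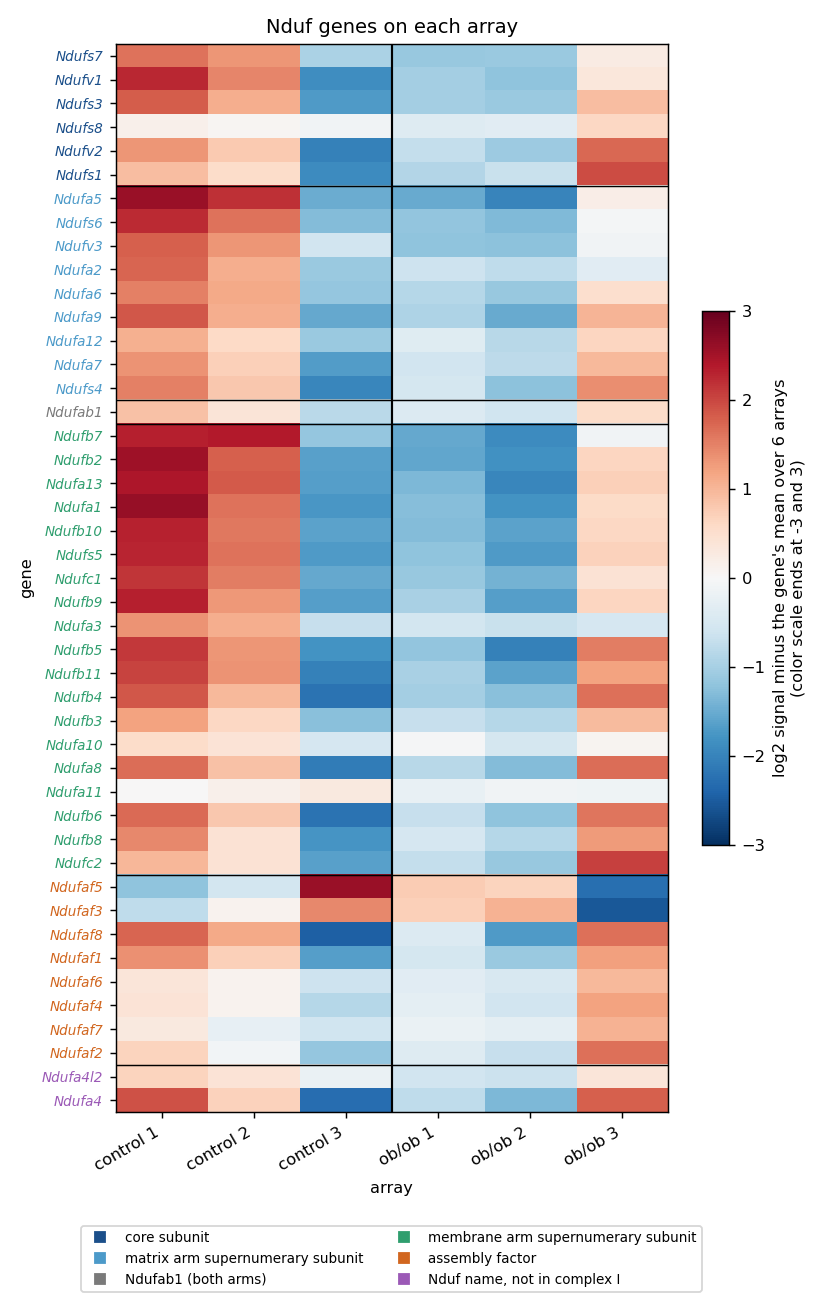
Log2 signal of 45 *Nduf* genes (rows, in classes separated by lines) on the 6 arrays (columns), each minus the gene's mean over the arrays, red above and blue below the mean. Control 3 is blue like *ob/ob* 1 and *ob/ob* 2 in nearly all subunits, *ob/ob* 3 is mostly red, and *Ndufaf3* and *Ndufaf5* show the reverse.

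Single pairs of arrays showed how far the direction depends on them. *ob/ob* 1 was lower than control 1 in 35 of 35 subunits and lower than control 2 in all 35, but lower than control 3 in only 6. For *ob/ob* 2 the counts were 35, 35 and 13, and for *ob/ob* 3 they were 30, 21 and 1. Without control 3 the median of the subunits was -1.85, and 16 members were lower at an unadjusted p under 0.05, where 4.19% of all named genes were. Without *ob/ob* 3 it was -1.46 with 2 such members of 45, near the share of all named genes (4.46%). Leaving out another array instead brought the median nearer to zero and the count to 0: the median was -0.32 without control 1 (23 of 35 subunits lower), -0.64 without control 2 (27 lower), -0.72 without *ob/ob* 1 (27 lower) and -0.43 without *ob/ob* 2 (25 lower). In those settings 0.53% to 1.22% of all named genes were lower at that threshold. Without both control 3 and *ob/ob* 3, 40 members were lower at an unadjusted p under 0.05, where 29.8% of all named genes were. In that setting 2 were higher, where 25.5% were. In that setting 39 members passed the adjusted p, where 49.5% of all named genes passed, and the medians were -2.51 for subunits, -0.66 for assembly factors and 0.07 for all named genes. Because these arrays were left out for their likeness to the other group, the small spread that remained is part of that choice, and the counts are no independent evidence.

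The 6 nuclear core subunits described here had a median log2 fold change of -0.43, and 5 of 6 had a lower mean in *ob/ob*. *Ndufs7*, which lies at the ubiquinone site, had log2 signals of 11.59, 11.28 and 9.02 on the control arrays and 8.83, 8.86 and 10.22 on the *ob/ob* arrays. Control 3 lay below *ob/ob* 3, and the log2 fold change was -1.33 (SE 0.79). *Ndufv1*, the flavin-bearing subunit at which NADH is oxidised, read 13.49, 12.69 and 9.36 in control and 10.21, 10.004 and 11.56 in *ob/ob*. Here control 3 was the lowest of all 6 arrays (log2 fold change -1.26, SE 1.11). *Ndufs3*, a scaffold of the matrix arm, read 12.72, 11.99 and 9.20 in control and 9.89, 9.79 and 11.83 in *ob/ob*, for a log2 fold change of -0.80 (SE 1.04). The same array was lowest, and the groups overlapped. The log2 fold changes of these genes without control 3 and *ob/ob* 3 were -2.59, -2.98 and -2.51.

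For the other core subunits, all carriers of iron-sulfur clusters, the group means were close. *Ndufv2* read 11.16, 10.61 and 7.80 in control and 9.12, 8.73 and 11.55 in *ob/ob* (log2 fold change -0.06, SE 1.12). *Ndufs1* read 9.44, 9.08 and 6.64 in control and 7.65, 7.85 and 10.48 in *ob/ob* (log2 fold change 0.28, SE 1.05), so that *ob/ob* 3 was the highest array for both genes. *Ndufs8* read 6.31, 6.23 and 6.04 in control and 5.78, 5.82 and 6.77 in *ob/ob* (log2 fold change -0.07, SE 0.39), a narrow range on a dim probe. Without control 3 and *ob/ob* 3 the log2 fold change of *Ndufs1* was -1.51, opposite in sign to its value over 6 arrays.

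**Figure D3:**
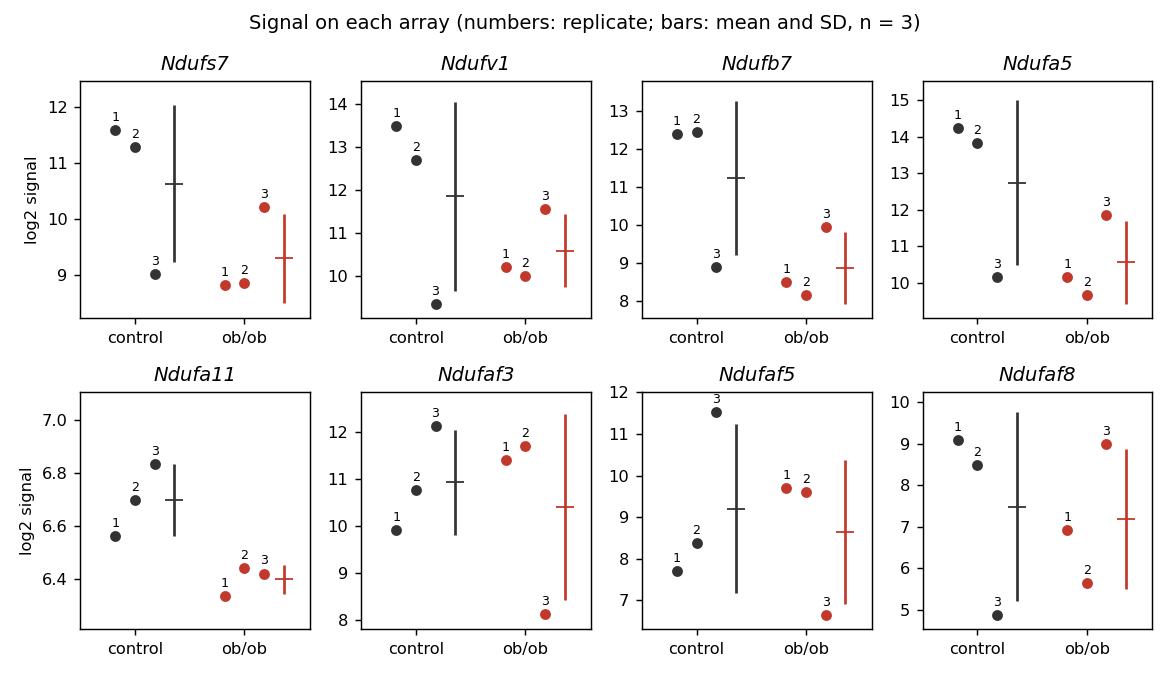
Log2 signal of 8 *Nduf* genes on each array (points, numbered by replicate, control in black and *ob/ob* in red), with the mean and SD of each group of 3 beside them. The groups are apart in *Ndufa11*, whereas in the other genes the arrays numbered 3 lie toward the other group; note the separate vertical scale of each panel.

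All 9 supernumerary subunits of the matrix arm had a lower mean in *ob/ob*, with a median log2 fold change of -0.99. The largest was *Ndufa5*, a matrix arm subunit, with log2 signals of 14.23, 13.83 and 10.15 in control and 10.14, 9.67 and 11.85 in *ob/ob*. Controls 1 and 2 were far above all other arrays, and control 3 read about the same as *ob/ob* 1 (log2 fold change -2.18, SE 1.19, unadjusted p = 0.115 in limma). *Ndufs6*, which binds zinc and joins late in assembly, read 13.11, 12.49 and 9.56 in control and 9.68, 9.54 and 10.79 in *ob/ob*. Its log2 fold change was -1.71 (SE 0.97), again with control 3 among the *ob/ob* arrays. *Ndufv3*, a small subunit near the flavin site, lay just outside the unadjusted threshold, with a log2 fold change of -1.70 (SE 0.71) and an unadjusted p of 0.0504 in limma. The 6 others of this arm (*Ndufa2*, *Ndufa6*, *Ndufa7*, *Ndufa9*, *Ndufa12* and *Ndufs4*) ranged from -1.16 to -0.25. *Ndufab1*, the mitochondrial acyl carrier protein found in both arms, had a log2 fold change of -0.31 (SE 0.57). *Ndufa5* was at -4.13 and *Ndufs6* at -3.19 without control 3 and *ob/ob* 3.

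In the membrane arm, 18 of 19 supernumerary subunits had a lower mean in *ob/ob*, with a median of -1.10, and 10 of them were at -1 or below. *Ndufb7* had the largest difference of all members. It read 12.38, 12.43 and 8.89 in control and 8.51, 8.16 and 9.96 in *ob/ob* (log2 fold change -2.36, SE 1.07, unadjusted p = 0.067 in limma). Its control 3 value lay between those of *ob/ob* 1 and *ob/ob* 3. *Ndufb2* read 13.75, 13.003 and 9.58 in control and 9.65, 9.38 and 11.86 in *ob/ob* (log2 fold change -1.82, SE 1.23). *Ndufa13*, also known as GRIM-19, read 13.94, 13.35 and 9.86 in control and 10.17, 9.57 and 12.23 in *ob/ob* (log2 fold change -1.73, SE 1.23). In both, control 3 lay within the *ob/ob* range. Leaving out control 3 and *ob/ob* 3 gave -4.07 for *Ndufb7*, -3.86 for *Ndufb2* and -3.77 for *Ndufa13*.

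*Ndufa11*, a membrane arm subunit, was the member whose groups were apart, at 6.56, 6.70 and 6.83 in control and 6.34, 6.44 and 6.42 in *ob/ob*. The difference was small (log2 fold change -0.30, SE 0.29, unadjusted p = 0.346 in limma), and control 3 was here the highest array. With each array centred on its 75th percentile, its groups overlapped. *Ndufc2* was the only supernumerary subunit with a higher mean in *ob/ob*, at 9.96, 9.40 and 7.33 in control and 8.24, 7.82 and 11.01 in *ob/ob* (log2 fold change 0.13, SE 1.06). That mean rested on *ob/ob* 3, the highest of the 6 arrays, and without control 3 and *ob/ob* 3 the value was -1.65.

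The assembly factors had smaller differences between the groups and did not share 1 direction. *Ndufaf3* and *Ndufaf5* were higher on control 3, *ob/ob* 1 and *ob/ob* 2 than on controls 1 and 2, opposite to the subunits. *Ndufaf3*, which acts with *Ndufaf4* in building the ubiquinone module, read 9.90, 10.76 and 12.12 in control and 11.39, 11.70 and 8.12 in *ob/ob* (log2 fold change -0.52, SE 1.08). *Ndufaf5*, an enzyme that hydroxylates an arginine of NDUFS7, read 7.71, 8.38 and 11.52 in control and 9.69, 9.59 and 6.66 in *ob/ob* (log2 fold change -0.56, SE 1.26). For both genes control 3 was the highest array and *ob/ob* 3 the lowest. Without these arrays the signs turned, to 1.21 and 1.598, and they were the 2 members higher at an unadjusted p under 0.05 in that setting.

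*Ndufaf1* and *Ndufaf8* resembled the subunits in that control 1 was the highest array and control 3 the lowest. *Ndufaf1*, which works with ECSIT and ACAD9 on the membrane arm, read 8.78, 8.13 and 5.76 in control and 6.88, 6.30 and 8.65 in *ob/ob* (log2 fold change -0.28, SE 0.97). *Ndufaf8*, the partner of *Ndufaf5*, read 9.09, 8.48 and 4.88 in control and 6.92, 5.65 and 8.998 in *ob/ob* (log2 fold change -0.29, SE 1.33). In each, *ob/ob* 3 was the second highest array, above control 2, unlike in the median subunit. *Ndufaf5* and *Ndufaf8* act together, yet control 3 was the highest array for one and the lowest for the other.

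The other assembly factors had a higher mean in *ob/ob*, and in each *ob/ob* 3 was the highest array. *Ndufaf2*, a relative of *Ndufa12* that binds a late intermediate, read 7.24, 6.49 and 5.43 in control and 6.20, 5.90 and 8.24 in *ob/ob* (log2 fold change 0.39, SE 0.77). *Ndufaf7*, an arginine methyltransferase that acts on a core subunit, read 6.34, 5.81 and 5.47 in control and 5.87, 5.77 and 7.10 in *ob/ob* (log2 fold change 0.37, SE 0.49). Neither difference reached its standard error. *Ndufaf4* read 7.55, 7.24 and 6.29 in control and 6.86, 6.56 and 8.35 in *ob/ob* (log2 fold change 0.23, SE 0.60). *Ndufaf6* read 7.31, 7.06 and 6.33 in control and 6.62, 6.48 and 7.94 in *ob/ob* (log2 fold change 0.12, SE 0.52). Without control 3 and *ob/ob* 3 all of these turned negative, to between -0.81 and -0.25.

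Among 9 assembly factors without the *Nduf* name, the median log2 fold change was -0.13, with 6 lower and none past an unadjusted p of 0.05 in either direction. *Dmac2* was at -1.37 (SE 1.42), *Ecsit*, a partner of *Ndufaf1*, at -1.19 (SE 0.56) and *Tmem70*, which also serves ATP synthase assembly, at 0.79 (SE 0.55). *Timmdc1* had the order of arrays of *Ndufaf5*, at 10.95, 11.13 and 13.16 in control and 12.92, 12.54 and 8.96 in *ob/ob*.

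*Ndufa4* and *Ndufa4l2* were read apart from the subunits. *Ndufa4*, now assigned to cytochrome c oxidase, read 13.44, 12.22 and 9.23 in control and 10.76, 10.18 and 13.31 in *ob/ob* (log2 fold change -0.21, SE 1.28). *Ndufa4l2*, its hypoxia-induced relative, read 7.33, 7.05 and 6.46 in control and 6.07, 6.00 and 7.01 in *ob/ob* (log2 fold change -0.59, SE 0.44). In both genes control 1 was the highest array, and the groups overlapped.

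Subunits and assembly factors were then set side by side on each array. The median deviation of the assembly factors was 0.38 on control 1, 0.10 on control 2 and -0.74 on control 3, and -0.31, -0.53 and 1.12 on *ob/ob* 1 to 3. Subtracted from that of the subunits, this left 1.38 on control 1 and 0.99 on control 2. The difference was -0.88 on control 3, -0.62 on *ob/ob* 1, -0.69 on *ob/ob* 2 and -0.47 on *ob/ob* 3. All *ob/ob* arrays were thus below controls 1 and 2, and control 3 was below them all. The contrast between the class medians of the fold changes was -0.86 over 6 arrays, -1.73 without control 3, -1.13 without *ob/ob* 3 and -1.85 without both, against an SD within groups of 0.86 for the per-array difference. With each array centred on its 75th percentile the median was -0.87 for the subunits and 0.02 for the assembly factors, while that of all named genes was -0.30.

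The classes also differed in the brightness of their probes, which moved with the fold change. Brightness is a property of probe and transcript together and is not a level that can be compared between genes. Of the 35 subunits, 18 had a mean log2 signal of at least 10, all of them lower in *ob/ob* with a median of -1.45. The 13 subunits between 8 and 10 had a median of -0.31, and the 4 under 8 had a median of -0.30. Of the 8 assembly factors, 6 were under 8, with a median of 0.17. Over all named genes the medians in the same ranges, from bright to dim, were -0.14, -0.08 and -0.08. Across the 45 members the Spearman correlation of mean signal with the fold change was -0.65, and with the SD within groups it was 0.65. These genes share the same 6 arrays, and the part of brightness in the contrast between classes was not tested.

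**Figure D4:**
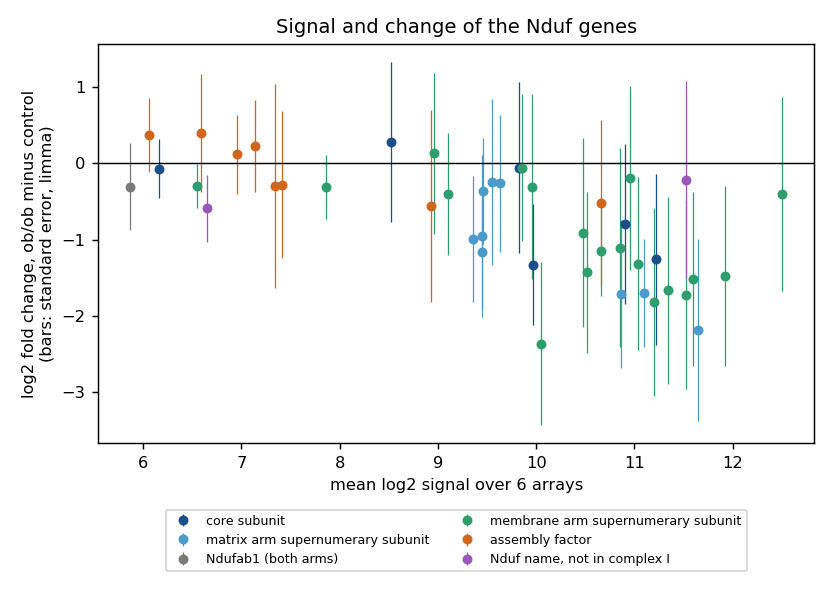
Log2 fold change of each *Nduf* gene (y axis, *ob/ob* minus control, bars ± SE) against the mean log2 signal of its probe over 6 arrays (x axis), colored by class. Differences below -1.4 occur only at mean signals above 10, and 6 of 8 assembly factors lie under 8.

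Genes with several probes gave a check within genes. The 45 genes had 53 probes, and 8 genes had 2 each. For *Ndufb5* the brighter probe had a log2 fold change of -1.10 (SE 1.31) and the dimmer one 0.04 (SE 0.59), with 12.97, 12.18 and 9.07 in control and 9.68, 8.83 and 12.39 in *ob/ob* on the brighter. For *Ndufb6* they had -0.20 (SE 1.201) and 1.098 (SE 1.25), with 12.66, 11.76 and 8.75 in control and 10.26, 9.75 and 12.57 in *ob/ob* on the brighter. In these genes the probes differed in sign, and none of the values exceeded its own standard error. The dimmer probe of *Ndufa5* was at -0.29 against -2.18 and that of *Ndufv3* at -0.34 against -1.70, so the size of the largest differences depended on the probe. Both probes of *Ndufb4* gave similar values (-0.40 and -0.60), as did those of *Ndufaf4* (0.23 and 0.18). The second probes of *Ndufaf5* and *Ndufb11* were too dim to be tested.

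Other gene lists showed a similar split of the arrays, with control 3 the lowest for complexes III, IV and V and for cytosolic ribosomal proteins. The medians of the log2 fold changes were -0.64 for 9 complex III subunits (8 lower), -0.79 for 13 complex IV subunits (10 lower), -0.07 for 15 complex V subunits (10 lower) and 0.67 for 4 complex II subunits (1 lower). For 76 cytosolic ribosomal proteins, which have no role in respiration, the median was 0.01, with deviations of 0.83, 0.52 and -1.35 on control arrays 1 to 3 and -0.34, -0.96 and 1.24 on *ob/ob* arrays 1 to 3. The highest array for this list was *ob/ob* 3. *ob/ob* 1 was below control 1 in 72 of 76 ribosomal genes, below control 2 in 73 and below control 3 in 6. For 75 mitochondrial ribosomal proteins the median was -0.09. Without control 3 and *ob/ob* 3 the medians were -2.34 for complex III (9 of 9 lower), -2.16 for complex IV (13 of 13), -2.33 for complex V (14 of 15), -1.38 for cytosolic ribosomal proteins (73 of 76) and -1.06 for mitochondrial ones (63 of 75). The complex II median turned in sign, to -1.24 (3 of 4 lower).

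Several marker lists moved with the subunits as well, among them those of muscle, of general adipocytes and of endothelial cells. Brown adipocyte markers did so in part, since they stayed below their mean on *ob/ob* 3. Skeletal muscle lies against this fat pad and is rich in mitochondria. The median deviation of 9 muscle markers was 0.99, 1.55 and -0.82 on control arrays 1 to 3 and -1.86, -1.79 and 1.88 on *ob/ob* arrays 1 to 3, with 8 of 9 lower in *ob/ob*. The median log2 signal of the list ranged from 7.56 to 10.63 in control and from 5.56 to 11.08 in *ob/ob*. *Myh4*, a fast muscle myosin, read 14.44, 14.96 and 11.16 in control and 6.97, 6.96 and 14.25 in *ob/ob*. *Myh1*, another fast myosin, read 11.80, 11.88 and 8.02 in control and 3.62, 3.08 and 14.64 in *ob/ob*, and was not well above background on *ob/ob* 1 and *ob/ob* 2. These 2 genes had the largest differences of the list. *Mylpf* went the other way, at 4.14, 3.68 and 5.10 in control and 5.51, 5.59 and 5.39 in *ob/ob* (log2 fold change 1.19, unadjusted p = 0.034 in limma). All its *ob/ob* arrays were above all control arrays, where 3.76% of all named genes showed this. Most muscle markers were thus high on the arrays on which the subunits were high, and their part in the result was not tested.

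Brown adipocyte markers, of which *Cox7a1* and *Cox8b* are also complex IV subunits, had a median log2 fold change of -2.32 (7 of 7 lower), with median deviations of 2.64, 2.12 and -0.91 on control arrays 1 to 3 and -1.46, -1.60 and -0.18 on *ob/ob* arrays 1 to 3. *Ucp1*, the uncoupling protein that defines the tissue, was present on all arrays, at 13.05, 11.72 and 9.48 in control and 8.93, 9.12 and 10.03 in *ob/ob*. Control 3 lay below *ob/ob* 3 for this gene too, and *Ucp1* did not pass the test (unadjusted p = 0.064 in limma). For 2 of the 7 markers all *ob/ob* arrays were below all control arrays, where 4.18% of all named genes showed this. *Elovl3*, a fatty acid elongase, read 9.20, 9.35 and 5.48 in control and 3.30, 3.92 and 3.29 in *ob/ob*, where it was not well above background on any array. It passed the filter only through the control arrays, where it was high, so no weight is given to its test. *Ppargc1a*, a coactivator of mitochondrial biogenesis, read 10.06, 9.99 and 7.594 in control and 5.81, 5.53 and 7.578 in *ob/ob* (log2 fold change -2.91, unadjusted p = 0.014 in limma). Neither passed the adjusted p, and control 3 was the lowest control array in both. Without control 3 and *ob/ob* 3 the medians were -3.91 for brown adipocyte markers (7 of 7 lower) and -2.99 for muscle markers (8 of 9). The medians were -0.28 for 6 general adipocyte markers, -0.32 for 5 white adipocyte, -1.93 for 4 endothelial, 0.24 for 6 macrophage, -0.12 for 6 lymphocyte and -0.26 for 3 erythrocyte markers. In whole tissue, fewer cells of a type and less RNA per cell cannot be told apart.

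**Figure D5:**
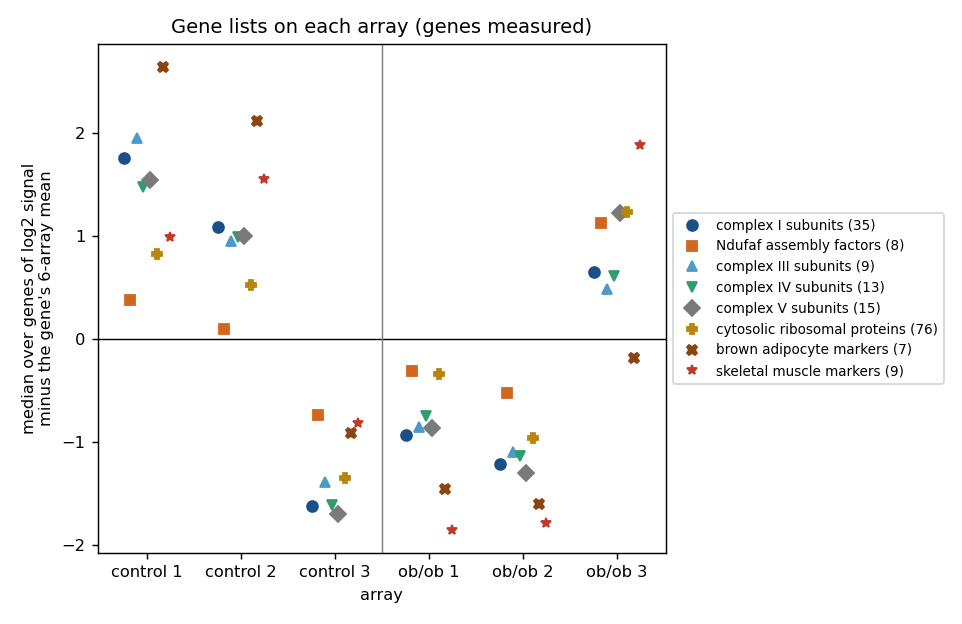
Median over the genes of each list of the log2 signal minus the gene's mean (y axis) on each of the 6 arrays (x axis), with the number of genes measured in the key. Complex I, III, IV and V subunits and ribosomal proteins are below zero on control 3 and above it on *ob/ob* 3, and brown adipocyte markers are below it on all but control 1 and control 2.

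The array headers held 4 scan identifiers, with control 1, control 3 and *ob/ob* 1 under the first and each other array under one of its own. The identifier alone does not say when a scan was made. Under the first identifier, *ob/ob* 1 was below the mean of controls 1 and 3 in all 35 subunits and 43 of 45 members. The exceptions were *Ndufaf3* and *Ndufaf5*. The median subunit difference was -0.96, and that of all named genes was -0.06. The 2 controls did not give the same direction. Against control 1, *ob/ob* 1 was lower in 35 of 35 subunits, with a median difference of -2.77. Against control 3 it was lower in only 6 of 35, with a median difference of 0.49. This comparison holds 1 *ob/ob* array and has no test.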

How the data were processed

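For each of 6 samples the authors deposited Agilent Feature Extraction 11.0.1.1 output with spot intensity corrected for background, and a table of log2 values that they quantile normalized (GeneSpring GX). Per the labels, total RNA was extracted with TRIzol and labelled with Cy3. Results of 1 gene are left out, and its probe was tested without a name. The members and gene lists were chosen with earlier results of these data known. Spots without outlier flags were averaged per probe on the log2 scale and quantile normalized. Probes with a share of spots well above background of at least 0.5 on at least 3 arrays (35448 of 39325) were tested with limma 3.58.1 (R 4.3.3), *ob/ob* minus control. RefSeq accessions were carried by 28623 probes, and GRCm38.p6 gave a symbol for 27173. The brightest probe represented each gene. Genes given with the value on every array (25) were, by rule, the core subunits, assembly factors, *Ndufa4*, *Ndufa4l2*, the 5 largest differences each way, genes with an unadjusted p under 0.05 or without overlap, and genes whose probes disagreed in sign. Marker lists were also drawn up for other adipocytes and for endothelial and immune cells. Deviations of same-numbered arrays from their group means were negatively correlated (-0.78, -0.66 and -0.85). Because the arrays numbered 3 each resembled the other group, this check could not decide whether the numbers pair the samples. The array number limits the precision. The code was tested on simulated data. Tables and figures were made with matplotlib 3.10.9, numpy 2.4.6 and pandas 2.3.3 in Python 3.11.15. Alternatives covered scaling, background, filter, scan, probes, test and left-out arrays.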

Additional observations from a re-analysis of the deposited data

How the results depend on the processing

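The count of members lower at an unadjusted p under 0.05, 0 over 6 arrays, was 1 with detection on all 6 arrays, with the mean of a gene's probes and with the methods' t-test, and 0 with each array centred on its 75th percentile and with an intensity trend and robust estimation. Where it was 1, the shares of all named genes were 1.94%, 1.47% and 2.13% in that order. With one array left out the count ranged from 0 to 16, the highest without control 3, where 4.19% of all named genes were lower. It was 40 without control 3 and *ob/ob* 3, where 29.8% of all named genes were lower. There 2 members were higher (25.5% of all named genes) and 39 passed the adjusted p (49.5%). Members with all *ob/ob* arrays below all control arrays, 1 over 6 arrays, numbered 0 with the 75th percentile, 2 with the mean of a gene's probes, 42 without both arrays, where 2 were above, and 1 to 22 with one array left out (22 without control 3 and 7 without *ob/ob* 3). The share of all named genes without overlap was counted over the 6 arrays only (4.18% lower). Fewer arrays separate more easily, so the counts with arrays left out say nothing particular about the members. The fit with the scan identifier as a block rests on *ob/ob* 1 against controls 1 and 3, with 1 residual degree of freedom, so that it says nothing about stability. The subunit median ranged from -1.85 to -0.32 with one array left out and was -2.51 without both arrays, and its contrast with the assembly factors -1.85, or -1.73 to -0.73 with one array left out. The median of all named genes moved from -0.09 to -0.30 with the 75th percentile. Other values of these results stayed on their side of the threshold or within the spread between arrays.

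Whether replicate numbers pair the samples could not be decided, and the fit with a replicate block left 0 members lower at an unadjusted p under 0.05.

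In the scan block fit, with its 1 informative *ob/ob* array, the sign of the log2 fold change turned for *Ndufaf2* (-0.13), *Ndufaf3* (0.38), *Ndufaf4* (-0.066), *Ndufaf5* (0.075), *Ndufaf6* (-0.20), *Ndufaf7* (-0.035), *Ndufc2* (-0.41) and *Ndufs1* (-0.39). Without control 3 and *ob/ob* 3 it turned for the same genes, to -0.81, 1.21, -0.69, 1.598, -0.63, -0.25, -1.65 and -1.51 in that order. In that setting the other genes named below were at -2.36 (*Ndufa4*), -1.87 (*Ndufaf1*), -2.50 (*Ndufaf8*), -2.20 (*Ndufb6*), -0.47 (*Ndufs8*) and -1.96 (*Ndufv2*). With the mean of its probes *Ndufb6* was at 0.45. With one array left out, 14 genes changed sign, with ranges of -1.41 to 0.69 for *Ndufa4*, -1.18 to 0.33 for *Ndufaf1*, -0.34 to 0.83 for *Ndufaf2*, -1.17 to 0.62 for *Ndufaf3*, -0.32 to 0.57 for *Ndufaf4*, -1.30 to 0.60 for *Ndufaf5*, -0.35 to 0.38 for *Ndufaf6*, -0.05 to 0.61 for *Ndufaf7*, -1.598 to 0.51 for *Ndufaf8*, -1.35 to 0.61 for *Ndufb6*, -0.87 to 0.73 for *Ndufc2*, -0.64 to 0.80 for *Ndufs1*, -0.39 to 0.10 for *Ndufs8* and -1.08 to 0.59 for *Ndufv2*. The cause of these turns was not tested. A value near the background understates a difference. The probes of *Ndufab1*, *Ndufs8* and *Ndufaf7* were dim but detected on all 6 arrays, and whether this made their differences smaller was not tested.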
